A study of Rattus norvegicus with 6 samples.

Results

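The regions described here are strong histone lactylation peaks that were called in 1 library and in none of the other 5. Peaks of all 6 lists were merged wherever they overlapped by at least 1 bp, which gave 176698 regions. Of these, 117601 held a peak of 1 library only, and 7149 of those had a −log10 q of at least 5 (q is the peak caller's p-value corrected for multiple testing, so a higher −log10 q is a stronger peak). They made up 4.05% of all regions, 6.08% of the private ones, and 18.1% of the 39526 regions whose strongest peak reached this threshold. The regions were chosen by measured values, the −log10 q and the absence of a call elsewhere, so the counts, shares and −log10 q values of these regions are a description and were not tested.

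The cells were wild-type rat tenocytes, fibroblast-like cells from tendon, cultured in 1640 medium. CUT&Tag libraries were made with an antibody against H3K9la, H4K8la or H4K16la, each from untreated cells (control) and from cells given 20 mM lactate, with 1 library per group. The labels name no animal, passage or clone, and no replicate, so no difference between libraries can be set against replicate error. A free-text field of the labels names lactate for all 6 libraries, whereas titles and the treatment entry separate control from lactate. Positions are on build rn7 and are counted from 1. The gene and promoter tables at hand describe another build, so no gene, exon, intron or sequence is given, and the tenocyte label could not be checked against marker genes.

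Lysine lactylation places a lactyl group on a histone tail, and lactate made by glycolysis is its known source. The acetyltransferase p300 can write the mark and class I histone deacetylases can remove it. The mark neutralises the lysine's charge much as acetylation does, and lactylated histones are often found at promoters and enhancers of active genes. Tendon is poorly vascularised, and its cells rely in part on glycolysis. In CUT&Tag, antibody-bound chromatin is cut by a tethered transposase, and the places where released fragments pile up are called as peaks.

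The 7149 private regions were divided very unevenly over the libraries. H3K9la control held 1921 of them, H4K16la lactate 1817 and H4K8la control 1722, against 682 for H3K9la lactate, 539 for H4K16la control and 468 for H4K8la lactate. Each region consists of exactly 1 peak. The number of peaks reaching −log10 q of 5 in each list also differed, so the private share is given as well. It was 12.5% (Wilson 95% interval 12.0 to 13.0, counting error only) of the 14558 strong peaks of H4K16la lactate and 9.87% (9.46 to 10.3) of the 19455 of H3K9la control. H4K8la control had 9.3% (8.89 to 9.72) of 18522 and H3K9la lactate 7.16% (6.66 to 7.7) of 9520. The lowest shares were 5.49% (5.02 to 5.99) of 8531 in H4K8la lactate and 5.48% (5.04 to 5.94) of 9841 in H4K16la control. These percentages are at once the members and the background of the rule, so nothing further was read from them.

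The private share fell steeply with strength in every library. Between −log10 q of 1.3 and 2, 58.6% to 72.3% of a library's peaks were private. Between 5 and 6 the share was 11% to 21.2%, and between 8 and 10 it was 1.04% to 5.81%. Most members therefore sat just above the threshold, with 53.1% (H4K8la control) to 66.7% (H4K8la lactate) of a class below 6. Median −log10 q ran from 5.46 in H4K8la lactate to 5.91 in H4K8la control. From a −log10 q of 10 upwards, 51 private regions were found in H4K16la lactate, 1.94% of its peaks of that strength. There were 42 (0.941%) in H4K8la control and 39 (1.04%) in H3K9la control. H4K16la control had 5 (0.237%), H4K8la lactate 5 (0.36%) and H3K9la lactate 4 (0.356%). The 5 members nearest the threshold in each library lay between 5.00 and 5.02, and the 5 private regions just outside it between 4.99 and 5.00, so the limit cuts through a continuous range.

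**Figure D1:**
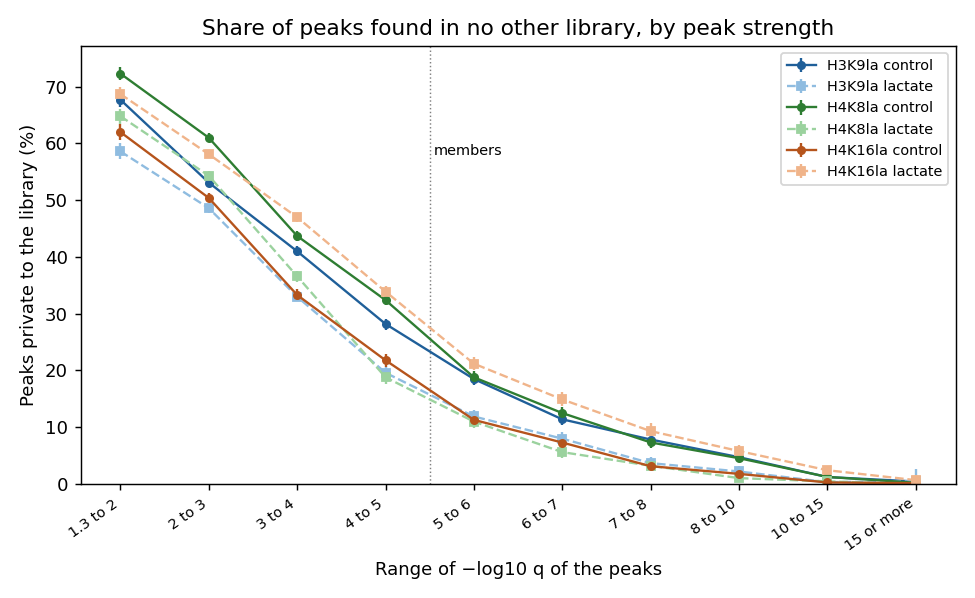
Share of each library's peaks that overlap no peak of the other 5 lists (vertical axis, percent, with Wilson 95% intervals) by range of −log10 q (horizontal axis); solid lines are control, dashed lines lactate, and the dotted line marks the threshold for the regions described here. In each library the share falls from 58.6% or more in the weakest range to at most 2.43% between 10 and 15.

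With lactate, strong private regions were fewer for H3K9la and H4K8la and more numerous for H4K16la. The H3K9la count gave a log2 ratio of lactate over control of −1.49 (counting interval −1.62 to −1.37), the H4K8la count −1.88 (−2.03 to −1.73) and the H4K16la count 1.75 (1.61 to 1.89). Counted over all strong peaks, the ratios were −1.03, −1.12 and 0.56, smaller in size for each mark. Depth differed as well. The average coverage of a base by fragments, recovered from the lists and called the genome-wide background here, was 2.17 in H3K9la control and 1.88 with lactate, 1.32 and 1.55 for H4K8la, and 1.53 and 2.84 for H4K16la. The values depended on how a strong peak was defined. With a −log10 p of at least 7 in place of the −log10 q of 5, the log2 ratios were −0.89, −0.81 and 1.41. With that limit applied after all summits had been scaled to the lowest background, they were −0.40, −2.83 and −3.70, the last from 42 lactate and 545 control regions. This scaling multiplies each summit of a library by 1 factor, smallest for H4K16la lactate, keeps privacy as called at full depth and redraws no counting noise. A lower count in the deepest library therefore follows from its construction, and these values do not correct the lists. Depth and lactate cannot be told apart here.

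How far a member stood above the limit of calling was described on the depth of the other libraries. Each member's summit pileup (the number of fragments over its highest base) and its local background were scaled by the ratio of genome-wide backgrounds. The scaled pileup was then divided by the smallest pileup that would reach the lowest −log10 p called in the other library, which lay between 3.12 and 3.33. This ratio, called the margin here, is taken in the least favourable of the other 5 libraries. All margins were above 1, which the choice of members nearly fixes, since the lowest −log10 p of a member was 7.87. The margins say nothing of the coverage that the other libraries had at these places, which was not analysed here. The median margin was 1.31 for H4K16la lactate, 1.41 for H3K9la control, 1.63 for H3K9la lactate, 1.83 for H4K16la control, 1.84 for H4K8la lactate and 1.89 for H4K8la control. A margin of 2 or more was found for 645 of the 7149 members (9.02%). Among them were 469 (27.2%) of H4K8la control and 2 (0.11%) of H4K16la lactate. The scaling lowers the pileups of a deep library and raises those of a shallow one. The order of the libraries by margin thus largely follows their depth and does not rank their members. Pileups are the highest value of a region and are therefore biased upward, and the local background was assumed to scale with depth.

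**Figure D2:**
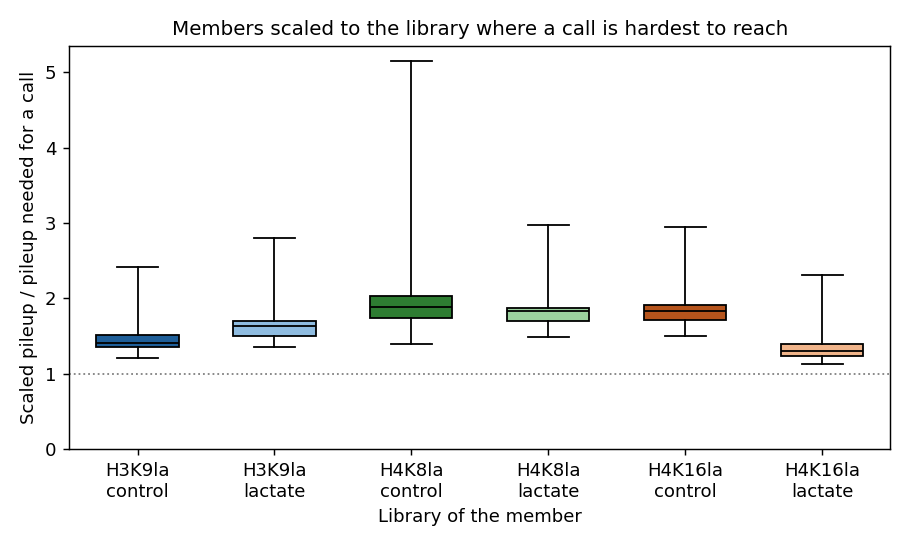
For the members of each library, the summit pileup scaled to another library's background, divided by the pileup needed there to reach the lowest called −log10 p, taken in the least favourable of the other 5 libraries (vertical axis, no unit). Boxes give quartiles and median, and whiskers the full range. The dotted line marks a ratio of 1, above which the choice of members nearly fixes all values. Medians run from 1.31 in H4K16la lactate to 1.89 in H4K8la control, an order that largely follows library depth through the scaling.

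The strongest private regions ranged from isolated peaks on a near-genome-wide background to summits on a high local background. H4K8la control had the strongest of all at chr2:73364903-73365370, 468 bp wide, with a fold over local background of 13.2 and a −log10 q of 25.8. Its summit held 31 fragments (exact Poisson 95% interval 21.1 to 44.0), 23.5 times the genome-wide background, on a local background of 1.08 times that level. No list had a peak within 54 kb of it, since the nearest peak of H4K8la control itself was 54046 bp away and the nearest of another library, H4K8la lactate, 60425 bp. Its margin of 5.15 was the largest of any member. In contrast, the H4K8la control region chr13:43770845-43771550 (fold 5.29, −log10 q 21.3) had 61 fragments on a local background 8.14 times the genome-wide one, with a peak of H3K9la control 807 bp away. The region chr4:10753820-10754470 (fold 4.42, −log10 q 14.3) was of the same kind, with 50 fragments on 7.99 times the genome-wide background. Between these lay chr19:21404779-21405179 (fold 8.24, −log10 q 16, 28 fragments) and chr3:108455748-108456634 (fold 6.89, −log10 q 14.3, 30 fragments), on 1.91 and 2.66 times that background.

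In H3K9la control the 3 strongest members all had a −log10 q of 16 and lay on a high local background. At chr6:130201161-130201884 the summit held 85 fragments (67.9 to 105.0) on a local background 11.6 times the genome-wide one, which left a fold of 3.28. At chr10:104464132-104464565 there were 56 fragments on 5.41 times that background (fold 4.48), and at chr17:35667873-35668165 there were 49 on 4.14 times (fold 5.01). Peaks of other libraries stood 1440 to 2386 bp from these 3 regions. The highest folds of the class belonged to peaks on about the genome-wide background instead. The region chr16:42932983-42933692 (fold 7.77, −log10 q 13.1, 24 fragments) was 430492 bp from the nearest H3K9la lactate peak and 487957 bp from the next peak of its own list, although H4K16la control had one 7016 bp away. The region chr5:85388579-85389349 (fold 7.26, −log10 q 11.5, 22 fragments) was private by a margin of 10 bp, the gap to an H4K8la control peak.

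H3K9la lactate was led by chr5:119779491-119779864, with a fold of 9.26 and 28 fragments (18.6 to 40.5), on 1.13 times the genome-wide background. The nearest peak of another library was 10963 bp away and the nearest H3K9la control peak 44603 bp, and scaled to H3K9la control its pileup was 3.59 times what a call there needed. The next members were weaker, from chr10:42124281-42124941 (fold 6.11, −log10 q 12.4) to chr2:74853559-74854230 (fold 6.83, −log10 q 9.54). At chr1:235382067-235382877 (fold 6.8, −log10 q 10.6) an H4K16la lactate peak stood 1021 bp away, whereas the H3K9la control list had none within 39039 bp. The region chr4:4746300-4746700 (fold 6.6, −log10 q 8.46, 18 fragments) lay 476108 bp from the nearest H3K9la control peak.

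The H4K8la lactate class had the lowest maximum of the 6, and its strongest members stood on low backgrounds of 1 to 1.36 times the genome-wide level. The strongest, chr16:20364296-20364873 (fold 8.64, −log10 q 12.8, 21 fragments), had a local background equal to the genome-wide one and no peak of another library within 53573 bp. Another of the 5 strongest lay 39956 bp from it at chr16:20323972-20324339 (fold 7.85, −log10 q 10.8). The region chr7:70342379-70343030 had the same fold and −log10 q, since 19 fragments over the genome-wide background give that value in this library. At chr9:4560846-4561621 (fold 7.19, −log10 q 9.47) the next peak of any other list was 81689 bp away. The widest member of the class, at 1490 bp, was on chromosome X (chrX:150509153-150510642, fold 6.06, −log10 q 7.12), 64242 bp from the nearest peak of another library.

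The strongest H4K16la control member was chr19:51575078-51575954 (fold 7.47, −log10 q 17.3), with 35 fragments (24.4 to 48.7) on 2.49 times the genome-wide background and peaks of other libraries no nearer than 10276 bp. At chr4:10344786-10345181 (fold 8.37, −log10 q 14, 24 fragments) the H4K16la lactate library had a peak 2679 bp away. Scaled to that much deeper library, the pileup of this region was 4.05 times what a call needed. On chromosome 20, chr20:4905031-4905378 (fold 7.51, −log10 q 10.1) and chr20:3348981-3349341 (fold 7.44, −log10 q 10.0) each had 18 fragments on about the genome-wide background.

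H4K16la lactate, the deepest library, had high pileups at the top of its class. The region chr12:21315596-21315915, 320 bp wide, had 45 fragments (32.8 to 60.2), a fold of 7.09 and a −log10 q of 21. The nearest H4K16la control peak was 34545 bp away. It was followed by chr7:46400851-46401367 (fold 7.12, −log10 q 17.5) and chr18:26007668-26008004 (fold 6.4, −log10 q 16.2). At chr3:77914981-77915470 (fold 4.52, −log10 q 15.6) the summit of 54 fragments stood on 3.93 times the genome-wide background. Scaled to the H4K16la control depth, these 4 summits reached 1.82 to 2.42 times the pileup needed there. The 5 strongest H4K16la control members, scaled the other way, reached 2.88 to 4.05 times. The first scaling lowers pileups and the other raises them, so the difference between these ranges says nothing of the members. Over the 42 regions taken by highest −log10 q and highest fold, 36 had a margin of 2 or more in each other library. A local background under 1.5 times the genome-wide one was found for 25 of them, and for 13 of the 30 taken by −log10 q alone. The share under 1.5 over all members was not computed. Medians over whole classes were 1.17 in H4K8la lactate, 1.34 in H3K9la lactate, 1.37 in H4K16la lactate and 1.45 in H4K16la control. They were 1.92 in H4K8la control and 2.18 in H3K9la control. Margin and local background are solved from fold and −log10 p, so the choice of regions bears on these counts. At least 10 kb from any peak of another library lay 12 of the 42, and the share over all members was not computed.

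Members were narrower than shared peaks of the same strength and had a lower local background. In the range of −log10 q from 5 to 6, median width was 502 bp for the 1069 members of H3K9la control and 622 bp for the 4715 shared peaks of that library. It was 479 against 559 bp in H3K9la lactate, 508 against 650 in H4K8la control, 528 against 624 in H4K8la lactate, 462.5 against 554 in H4K16la control and 474 against 554 in H4K16la lactate. The widest member of all was an H3K9la control region of 1809 bp (chr1:119848825-119850633, fold 2.91, −log10 q 5.46). A wide peak has more bases with which to touch another list's peak, so the rule itself works in this direction. The place of the summit did not set members apart, as it fell in the middle 50% of the peak in 69.4% to 74.2% of members and in 72.6% to 74.9% of shared strong peaks.

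The local background differed between members and shared peaks of equal strength in all 6 libraries. Between −log10 q of 5 and 6 its median was 1.19 times the genome-wide level for members and 1.96 times for shared peaks in H4K8la lactate, 1.37 and 1.94 in H3K9la lactate, and 1.45 and 1.99 in H4K16la control. The gap was 1.77 against 2.51 in H4K8la control, 1.38 against 1.64 in H4K16la lactate and 2.04 against 2.37 in H3K9la control. At like −log10 q, members thus had fewer fragments and a higher fold, which a lower background brings with it. In H4K8la lactate, for example, the median was 14 fragments and a fold of 5.24 for members, and 18 fragments and a fold of 4.63 for shared peaks.

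Counted over whole classes, 119 (25.4%) of the H4K8la lactate members had a local background equal to the genome-wide one, where 3.32% of all strong peaks of that library did. The count was 132 (19.4%, against 4.23%) in H3K9la lactate, 75 (13.9%, against 2.33%) in H4K16la control and 250 (13.8%, against 5.13%) in H4K16la lactate. It was 193 (11.2%, against 2.29%) in H4K8la control and 112 (5.83%, against 2.15%) in H3K9la control. Members on such a background were thus several times as frequent as among the strong peaks in general. On that background each fragment count gives a fixed −log10 q, so the order of the libraries depends in part on where these values fall above 5. Among members between 5 and 5.5, the share was 25.7% in H3K9la lactate, 30.5% in H4K8la lactate and 0.0% in the other libraries. The other end of the scale belonged to 2 libraries. A local background over 5 times the genome-wide one was found for 233 (12.1%) members of H3K9la control and 216 (12.5%) of H4K8la control, close to the 13.3% and 15.5% among all strong peaks there. In the remaining libraries it was found for 0 of 682 members of H3K9la lactate (1.83% of all strong peaks), 2 of H4K8la lactate (1.55%), 2 of H4K16la control (1.75%) and 1 of H4K16la lactate (0.378%). Members on a high background were thus nearly limited to the H3K9la and H4K8la control lists, where such peaks were also most frequent in general. In these members the median fold was 2.88 in H3K9la control and 3.34 in H4K8la control, with 42 and 33 fragments at the summit. The part of local background in the private calls was not tested.

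**Figure D3:**
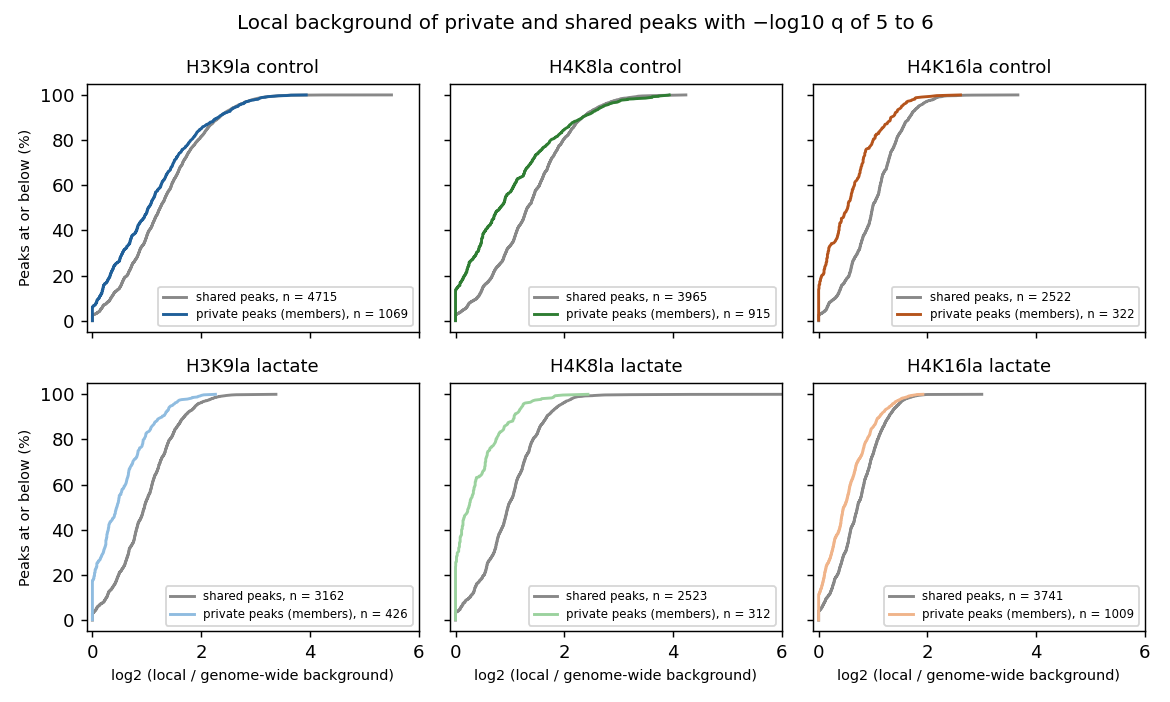
Cumulative share of peaks (vertical axis, percent) by local background over the genome-wide background of the library (horizontal axis, log2 scale), for peaks with −log10 q of 5 to 6; coloured lines are private peaks, grey lines peaks shared with at least 1 other library. In each panel the private line lies to the left over most of the range, with medians of 1.19 against 1.96 times in H4K8la lactate and 2.04 against 2.37 times in H3K9la control; in both H3K9la control and H4K8la control the lines meet at high background.

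Private did not mean remote. The median distance from a member to the nearest peak of any other library was 2403.5 bp in H4K8la control, 3186 bp in H3K9la control, 4088 bp in H4K16la control, 4166 bp in H3K9la lactate, 4859 bp in H4K16la lactate and 5309 bp in H4K8la lactate. Within 5 kb such a peak was found for 1180 (68.5%) of the H4K8la control members, where 57.6% of the private regions of that library below the threshold had one. The figures were 1240 (64.5%, against 62.7%) in H3K9la control, 308 (57.1%, against 56.5%) in H4K16la control and 384 (56.3%, against 58.8%) in H3K9la lactate. They were 927 (51.0%, against 52.0%) in H4K16la lactate and 225 (48.1%, against 49.1%) in H4K8la lactate. Strong and weak private regions thus lay at similar distances from other libraries' peaks, apart from H4K8la control, where the strong ones were nearer. Without members on a local background over 5 times the genome-wide one, the H4K8la control share was 65.2%. A gap of under 100 bp separated 245 members from a peak of another library. These were 2.09% (H4K16la lactate) to 5.05% (H4K8la control) of a class, against 3.02% to 3.95% of a library's weaker private regions.

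H4K8la control members also had close neighbours in their own list. A second H4K8la control peak lay within 1 kb of 241 of them (14%), against 7.3% for the weaker private regions of that library and 1.91% to 5.31% for the members of the other 5. The share was 41.7% among the 216 members with a local background over 5 times the genome-wide one, and 10.0% among the other 1506. Among all strong H4K8la control peaks the shares were 23.0% of 2879 on such a high background and 8.36% of 15643 on a lower one. H3K9la control members showed a like contrast at a lower level, with 12.0% of 233 and 4.38% of 1688, near the 12.8% and 5.14% of all strong peaks there. The H4K8la control members on a high background thus had a close neighbour in their own list more often than strong peaks of that library in general, and the H3K9la control members did not. The nearest foreign peak of an H4K8la control member was most often one of H3K9la control, for 546 (31.7%), and the nearest to an H3K9la control member one of H4K8la control, for 650 (33.8%). Both lists are long, with 61850 and 61347 peaks. H4K16la lactate, the longest list with 62563 peaks, was nearest for 407 (23.6%) and 406 (21.1%) of the same members.

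At the other extreme, 98 members lay 50 kb or more from any peak of another library. H4K8la lactate held 36 of these (7.69% of its class, against 8.7% of its weaker private regions), H4K16la lactate 21 (1.16%, against 1.33%) and H3K9la lactate 14 (2.05%, against 1.77%). H4K16la control had 8 (1.48%, against 1.7%), close to its weaker regions as well. In H4K8la control 15 members were this remote (0.871%, against 3.78%) and in H3K9la control 4 (0.208%, against 0.63%), so in these libraries remote regions made up a smaller share of the strong private regions than of the weaker ones.

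**Figure D4:**
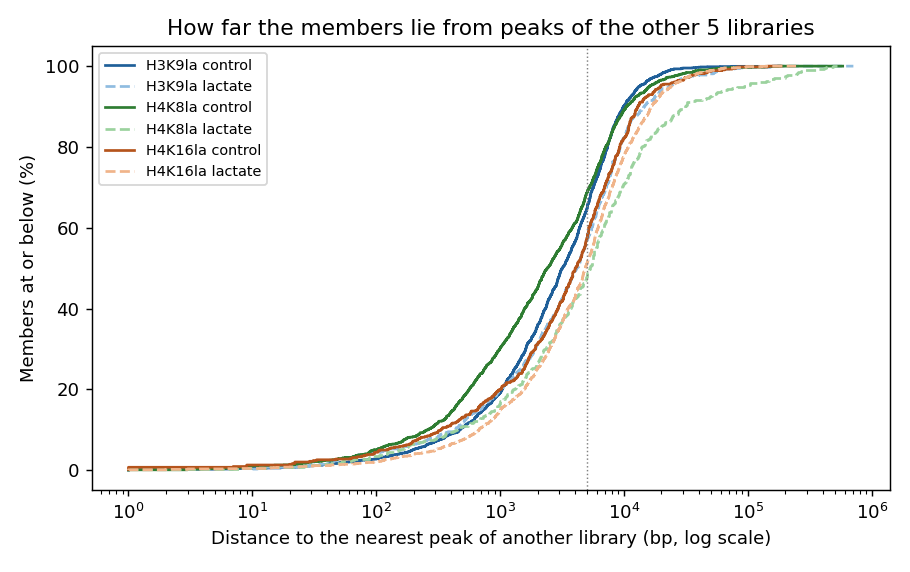
Cumulative share of the members of each library (vertical axis, percent) by distance to the nearest peak of any other library (horizontal axis, bp, log scale); solid lines are control, dashed lines lactate, and the dotted line marks 5 kb. At 5 kb the lines run from 48.1% for H4K8la lactate to 68.5% for H4K8la control.

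On chromosome X a larger share of strong peaks was private than on the autosomes. In H4K16la lactate it was 27.8% (Wilson 95% interval 22.2 to 34.2; 59 of 212) on chromosome X and 12.3% (11.7 to 12.8) on the autosomes. In H4K8la lactate it was 22.7% (15.9 to 31.4; 25 of 110) against 5.25% (4.8 to 5.75). H3K9la control had 17.8% (13.0 to 23.8) against 9.8% (9.38 to 10.2), and H3K9la lactate 16.7% (10.7 to 25.1) against 7.06% (6.56 to 7.6). The ratio of X to autosomes was lowest in H4K8la control, with 13.4% (9.8 to 18.1) against 9.24% (8.83 to 9.67). In H4K16la control the shares were 11.7% (7.32 to 18.1) and 5.39% (4.96 to 5.86). In each library chromosome X exceeded the highest single autosome, which was chromosome 14 at 14.9% in H4K16la lactate and chromosome 13 at 12.7% in H4K8la control, for example.

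Strong peaks on chromosome X also differed from autosomal ones in strength and background. Their median −log10 q was lower in each library, with 6.2 against 7.05 in H3K9la control and 6.69 against 7.34 in H4K8la control. Median local backgrounds were lower in each library as well. The gap was widest in these same libraries, with 1.33 against 2.61 and 1.88 against 2.98 times the genome-wide level. It was narrower in H4K8la lactate, with 1.61 against 2.14, and narrowest in H4K16la lactate, with 1.3 against 1.71. The ratio of X to autosomes in private share ran from 1.45 in H4K8la control to 4.33 in H4K8la lactate. Restricted to −log10 q of 5 to 6, the private share on chromosome X was 46.1% of 89 peaks against 20.8% in H4K16la lactate, 37.3% of 51 against 10.5% in H4K8la lactate, 22.7% of 44 against 11.7% in H3K9la lactate, 26.1% of 88 against 18.4% in H3K9la control and 17.6% of 51 against 11.2% in H4K16la control. In H4K8la control the shares were 18.6% of 86 and 18.8%, so there chromosome X did not stand above the autosomes. No intervals were computed for these matched shares. They rest on 44 to 89 chromosome X peaks per library, so the smaller excesses among them are uncertain. Chromosome X also held few strong peaks, from 0.982% of those on X and autosomes in H3K9la control to 1.46% in H4K16la lactate. The parts of local background and of this low number in the X pattern were not tested. Chromosome Y had 1 to 6 strong peaks per library, and 1 of them, in H4K8la lactate, was private.

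**Figure D5:**
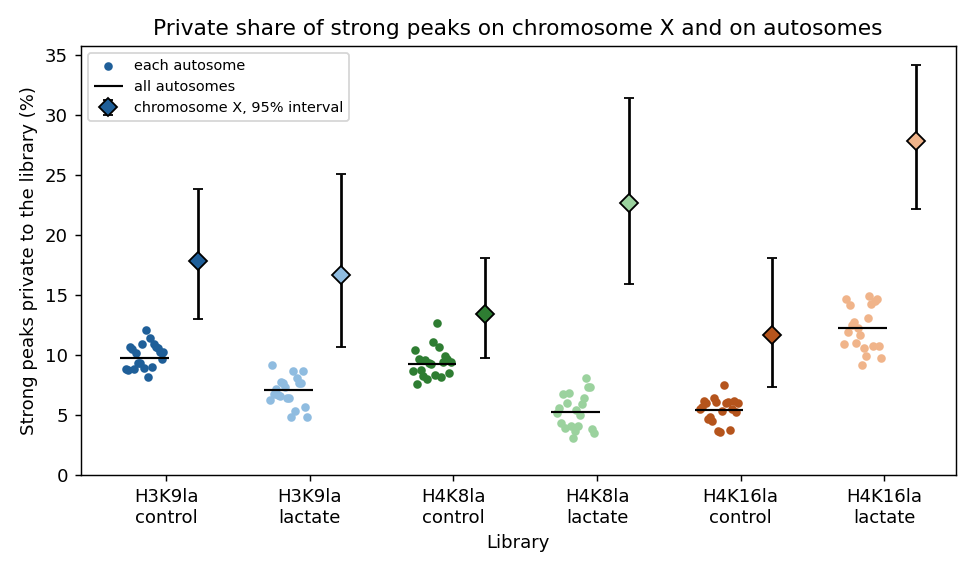
Share of each library's strong peaks (−log10 q of at least 5) that were private to it (vertical axis, percent): dots are single autosomes, black lines all autosomes together, and diamonds chromosome X with its Wilson 95% interval, which covers counting error only. Chromosome X lies above each autosome in all 6 libraries, from 11.7% in H4K16la control to 27.8% in H4K16la lactate. Peaks were not matched for strength here.

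Members were spread over much of the genome. Those of H3K9la control fell into 1127 of the 2065 windows of 1 Mb that held any strong peak of that library. Of these 1127 windows, 55.3% held just 1 of them. In H4K8la lactate they fell into 426 of 1953 such windows, and 91.1% of the 426 held 1. The largest number in a window was 8, for H3K9la control at chr1:13000001-14000000, where the library had 17 strong peaks in all. H4K16la lactate had 5 of its 7 strong peaks private at chr4:9000001-10000000. Few members lay in runs with gaps of less than 10 kb, namely 68 (3.54%) of H3K9la control, 43 (2.5%) of H4K8la control and 38 (2.09%) of H4K16la lactate. There were 4 (0.587%) of H3K9la lactate, 4 (0.855%) of H4K8la lactate and 0 of H4K16la control. A larger class has more members that can form runs, and the share in runs was not computed for all strong peaks. The longest run, of 3 members, was in H4K8la control.

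Some members of different libraries stood side by side. In all, 34 neighbouring pairs from different libraries lay within 1 kb of each other. Of these, 7 were from the same mark, 15 from different marks in the same condition and 12 differed in both. Fewer combinations of libraries share a mark than fall in either other kind, and the classes differ in size. No expected split was computed, so these counts show no preference for a mark or condition. The pair with the strongest weaker partner was from the lactate libraries, H4K16la at chr16:14069053-14069657 (fold 5.99, −log10 q 9.22) and H4K8la at chr16:14070411-14070740 (fold 7.2, −log10 q 9.86), 753 bp apart. The next was also from lactate, H4K16la at chr6:45534246-45535060 (fold 4.24, −log10 q 8.51) and H3K9la at chr6:45535426-45536091 (fold 4.46, −log10 q 7.21), 365 bp apart. In such a pair each peak counts as private although 2 libraries were called at almost the same place.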

How the data were processed

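The deposited files are narrow peak lists, 1 for each of 6 libraries. The submitters' processing notes name MACS2, Bowtie2, cutadapt, deepTools and FastQC and the build rn7. Versions, settings and any use of an IgG library in peak calling were not given in the sources used here. It is thus not known whether local backgrounds stem from a library's own fragments or from an IgG library. Among the deposited columns, the authors give the fold, a ratio of summit pileup to local background, the −log10 p and the −log10 q of each peak, and a score that follows 10 times the −log10 q.

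The regions, thresholds and descriptions were chosen with earlier results of these data known. Pileup and local background were solved from fold and −log10 p within 0.002 of −log10 p, as (pileup + 1) over (background + 1) and the upper Poisson tail. A solution was found for all peaks but 1, in H4K16la lactate. This reading is inferred from the values. Tested on simulated data, 5000 peaks at each of 3 backgrounds, the search recovered 100% of pileups, and 100% of local backgrounds within 0.01. The simulated peaks were made with the same formula, so this checks the search and not whether the deposited columns follow the formula. Their local backgrounds stayed under 5 times the genome-wide one, whereas those of members reached 20.0 times. The most frequent local background, also the lowest, was taken as genome-wide.

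Regions named are the 5 of highest −log10 q, the 2 next of highest fold and the widest of each library. With 1 library per group no test was made. Intervals are Wilson or exact Poisson 95% intervals and cover counting error only. Alternatives were −log10 q of 10, −log10 p of 7, merging within 500 bp, 50% overlap, strong peaks only, equal list lengths, no sex chromosomes, other distances, lists left out and scaled depth, the last 2 added after seeing the data, as was the limit on local background. Genes and sequences were not analysed here, because the tables at hand are of build GRCr8. Scripts ran in Python 3.11.15 (scipy 1.17.1, numpy 2.4.6, matplotlib 3.10.9, pandas 2.3.3).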

Additional observations from a re-analysis of the deposited data

Results flagged for a closer look

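The number of strong private regions with lactate relative to control went in opposite directions between the marks. The log2 ratio was −1.49 for H3K9la, −1.88 for H4K8la and 1.75 for H4K16la. Each value rests on 1 library per condition, and the difference between marks was not tested. Library depth differed between the conditions of each mark, most for H4K16la, and its part in the difference was not tested.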

How the results depend on the processing

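Counts are given in the order H3K9la control, H3K9la lactate, H4K8la control, H4K8la lactate, H4K16la control, H4K16la lactate, and log2 ratios in the order H3K9la, H4K8la, H4K16la. A −log10 q of at least 10 left 39, 4, 42, 5, 5 and 51 members, with ratios of −3.29, −3.07 and 3.35. A −log10 p of at least 7 gave 3835, 2066, 3264, 1861, 1738 and 4613, with ratios of −0.89, −0.81 and 1.41. When only peaks with −log10 q of at least 5 ended privacy there were 6536, 1998, 5700, 1289, 1639 and 4750, with ratios of −1.71, −2.15 and 1.53. With summits scaled to the lowest background and a −log10 p of at least 7 there were 261, 198, 3264, 460, 545 and 42, with ratios of −0.40, −2.83 and −3.70, the H4K16la sign being opposite. The 1 factor per library, smallest for H4K16la lactate, lowers that count by construction. An overlap of at least 50% gave a ratio of 1.57 for H4K16la. Merging within 500 bp, equal list lengths and leaving out chromosomes X and Y kept each count within 1.5 times and each ratio within its interval. Leaving out 1 other list at a time gave 2173 to 2808, 749 to 938, 1977 to 2565, 525 to 616, 601 to 715 and 2043 to 2343. Width ratios of members to shared peaks changed little in a narrower range of −log10 q. No paired analysis was possible because each group has 1 library. Peak lists carry no read totals, so depth was known only through the recovered background.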

Other observations

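All 6 libraries had a strong private region within the same 1 Mb window at 4 of the 2017 windows that held any. These were chr1:231000001-232000000 with 10 members, chr2:113000001-114000000 with 9, chr17:47000001-48000000 with 7 and chr8:62000001-63000000 with 6. At 502 windows the members came from 1 library only. The windows are counted from the chromosome start, and no expected number was computed.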
